A study of Arabidopsis thaliana with 48 samples.

Results

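The genes described here encode the light-harvesting proteins and the nuclear-encoded subunits of both photosystems in Arabidopsis thaliana. A list of 41 loci, drawn up by protein family, defined the members among the 32678 gene identifiers of the count tables. It held 6 photosystem I antenna genes (LHCA1 to LHCA6), 7 genes of the major photosystem II antenna (LHCB1.1, LHCB1.2, LHCB1.3, LHCB2.1, LHCB2.2, LHCB2.3 and LHCB3) and 6 genes of its minor antenna (LHCB4.1, LHCB4.2, LHCB4.3, LHCB5, LHCB6 and LHCB7). The other 22 members were subunits: 12 of photosystem I (PSAD1, PSAD2, PSAE1, PSAE2, PSAF, PSAG, PSAH1, PSAH2, PSAK, PSAL, PSAN and PSAO) and 10 of photosystem II (PSBO1, PSBO2, PSBP1, PSBQ1, PSBQ2, PSBR, PSBS, PSBW, PSBX and PSBY). LHCB1.4 (AT2G34430) and LHCB1.5 (AT2G34420), further genes of the LHCB1 family, were not on the list. All 41 members were among the 21098 genes that passed the filter on low counts.

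Chlorophyll bound to the antenna proteins absorbs light and passes its energy to the photosystem cores, where electrons are moved from water towards ferredoxin. Trimers of LHCB1, LHCB2 and LHCB3 make up the bulk antenna of photosystem II, the minor antenna proteins join those trimers to the core, and the LHCA proteins form a belt on one side of photosystem I. The nuclear genes for these proteins are known for strong expression in green tissue, for control by light and by the circadian clock, and for activation by the GLK transcription factors.

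RNA-seq was carried out on shoots and roots of 5-week-old plants grown in the FlowPot system, a gnotobiotic peat system in which the microbes are chosen. The plants were the myc2-3 mutant and the MYC2-FLAG line (written myc2-Flag in the sample labels), which is the jin1-8 mutant carrying FLAG-tagged MYC2 under the MYC2 promoter; MYC2 is a transcription factor of jasmonate signalling. Each line was grown under low photosynthetically active radiation (LP, called shade in the labels) or under normal conditions (NC), and with (+BFO) or without (-BFO) a synthetic community of bacteria, fungi and oomycetes. Every one of the 16 combinations of tissue, line, light and BFO had 3 libraries, or 48 in all. Both lines thus carry a mutant allele of the native MYC2 gene, and no wild type was analysed here. The libraries of each line carry one sequencing project number of their own, so that line and project cannot be told apart.

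The 250 bases before the transcription start of 4 antenna genes are shown because these genes, LHCB2.1, LHCB2.2 and LHCB2.3 on one side and LHCB4.3 on the other, had light responses of opposite direction in MYC2-FLAG shoots without BFO. They were read from the RefSeq annotation of TAIR10.1, 5′ to 3′ on the strand of the gene. Capitals mark matches on either strand to the G-box (CACGTG), the I-box (GATAAG), the antenna promoter element CCAATC, the CCA1 site (AAAAATCT) or the evening element (AAAATATCT).
LHCB2.1 (AT2G05100, chr2:1824481-1824730, minus strand): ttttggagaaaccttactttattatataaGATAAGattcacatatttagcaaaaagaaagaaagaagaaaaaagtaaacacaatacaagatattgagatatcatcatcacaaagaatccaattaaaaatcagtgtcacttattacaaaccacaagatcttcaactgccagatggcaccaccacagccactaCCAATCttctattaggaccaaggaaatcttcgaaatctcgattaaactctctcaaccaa
LHCB2.2 (AT2G05070, chr2:1800473-1800722, minus strand): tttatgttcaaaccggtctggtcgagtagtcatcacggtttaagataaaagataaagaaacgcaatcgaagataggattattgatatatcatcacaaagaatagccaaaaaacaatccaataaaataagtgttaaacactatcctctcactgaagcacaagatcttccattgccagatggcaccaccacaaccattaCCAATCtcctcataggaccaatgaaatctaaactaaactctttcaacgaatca
LHCB2.3 (AT3G27690, chr3:10255656-10255905, plus strand): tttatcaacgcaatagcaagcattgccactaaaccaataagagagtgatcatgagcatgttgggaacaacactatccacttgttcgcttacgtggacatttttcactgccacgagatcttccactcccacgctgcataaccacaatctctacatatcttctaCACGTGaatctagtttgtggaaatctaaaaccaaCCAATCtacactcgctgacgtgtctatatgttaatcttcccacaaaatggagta
LHCB4.3 (AT2G40100, chr2:16745378-16745627, plus strand): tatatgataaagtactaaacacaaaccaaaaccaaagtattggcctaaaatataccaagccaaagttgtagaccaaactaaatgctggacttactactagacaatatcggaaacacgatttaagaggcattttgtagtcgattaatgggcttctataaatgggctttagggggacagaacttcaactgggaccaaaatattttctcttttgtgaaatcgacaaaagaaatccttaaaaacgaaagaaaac

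All 3 LHCB2 promoters held CCAATC, 59 bases upstream of the start in LHCB2.1, 53 in LHCB2.2 and 54 in LHCB2.3. LHCB2.3 also held a G-box 88 bases upstream, and LHCB2.1 an I-box 221 bases upstream. The LHCB4.3 window held none of the 5 motifs, but neither did those of LHCB1.2 and LHCB3, which rose in the same comparison, and LHCB1.1, which rose too, held no CCAATC. Over the members, CCAATC was present in 9 of 19 antenna promoters (47.4%) and in 1 of 22 subunit promoters (4.55%), against 10.2% of the 27443 promoters of nuclear protein-coding genes. The G-box was found in 9 of the 41 promoters (22%), against 6.49% of all promoters. The I-box was also found in 9 of 41 (22%), against 12.3%. The CCA1 site was in 4 of 41 (9.76%), against 6.69%, and the evening element in 1 of 41 (2.44%), against 2.36%. These matches describe the letters of the windows, and binding was not measured.

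The libraries held 5162823 to 11045467 counts in genes, with a median of 7803640. The tissue labels were checked with 7 shoot and 7 root marker genes, given here as CPM, the counts of a gene per 1000000 counts of a library after scaling by the trimmed mean of M values. The summed shoot markers reached 98.4 to 192 CPM in shoots and 0 to 0.665 CPM in roots, where YAB5 had 0 counts in all 24 libraries. The summed root markers reached 0.312 to 8.36 CPM in shoots, where EXPA7 had 0 counts in all 24 libraries, and 306.6 to 882 CPM in roots. MYC2 averaged 6.97 to 11.8 CPM in myc2-3 shoots, against 55.2 to 241 CPM in MYC2-FLAG shoots, and it was lower in myc2-3 in all 8 comparisons by edgeR's quasi-likelihood test (adjusted p of at most 3.67e-06).

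The condition labels of the 2 lines did not line up with each other over the transcriptome. The mean profile of each condition was centred within its line and correlated across 18489 genes in shoots and 19940 genes in roots, which are not independent points. In shoots the correlation of the same label between lines was -0.35 for NC -BFO, 0.73 for LP -BFO, 0.62 for NC +BFO and -0.70 for LP +BFO. The myc2-3 NC -BFO profile was closest to that of MYC2-FLAG LP +BFO, with a correlation of 0.84. The myc2-3 LP +BFO profile was closest to that of MYC2-FLAG NC +BFO, with a correlation of 0.665. The myc2-3 NC +BFO profile was as close to that of MYC2-FLAG NC -BFO (0.629) as to its own label (0.616). In shoots only the LP -BFO profile was clearly closest to its own label. In roots all 4 same-label correlations were negative, from -0.77 to -0.51. Each myc2-3 root profile was closest to the MYC2-FLAG profile of the same light and the opposite BFO label, with correlations of 0.78 for NC -BFO, 0.79 for NC +BFO, 0.59 for LP -BFO and 0.72 for LP +BFO. Whether labels were exchanged was not tested, and the doubt touches the comparisons of light, BFO and line in both tissues. All conditions are reported as labelled, and every comparison below rests on those labels.

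The members took up a large part of the shoot transcriptome. They made up 10.2 to 19.6% of the counts in shoot libraries and 0.0259 to 0.212% in root libraries. In shoots the share averaged 19.3 ± 0.317% in myc2-3 LP -BFO plants, against 15.8 ± 0.622% in myc2-3 NC -BFO plants, and 18.2 ± 0.762% in MYC2-FLAG LP -BFO plants, against 11.3 ± 0.989% in MYC2-FLAG NC -BFO plants (SD, n = 3 each). With BFO it averaged 14.8 ± 1.95% in LP and 15.1 ± 0.359% in NC for myc2-3, and 15.2 ± 1.13% in LP and 13.1 ± 1.96% in NC for MYC2-FLAG. All 41 members were higher in shoots than in roots in both lines, where 39.1% of all tested genes were higher and 47% lower in myc2-3, and 37.8% higher and 47.1% lower in MYC2-FLAG. The median log2 fold change of the members was 8.41 in myc2-3 and 7.78 in MYC2-FLAG, on a scale where the median of all genes was -0.13 and -0.14.

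Levels per kilobase of exon spread widely among the members. In shoots LHCB1.3, a major antenna gene, had the highest median over the 24 libraries at 27440 CPM per kb. It was followed by its copies LHCB1.2 at 10900 and LHCB1.1 at 9326 CPM per kb, and by the photosystem I antenna genes LHCA4 at 8402 and LHCA1 at 7263 CPM per kb. This order of medians did not hold in every condition, since in MYC2-FLAG NC -BFO shoots LHCA4 averaged 5840 and LHCB1.1 4354 CPM per kb. Neighbours further down, such as LHCB5 at 6419 and LHCB3 at 6411 CPM per kb, overlapped over the libraries. The lowest were LHCA5 (138 CPM per kb) and LHCA6 (101 CPM per kb), which tie photosystem I to the NDH complex of cyclic electron flow, the rare antenna protein gene LHCB7 (13.0 CPM per kb), and the third LHCB4 copy LHCB4.3 (5.16 CPM per kb). In roots LHCB1.3 was again first at 125 CPM per kb, followed by LHCA4 at 45.6 and LHCB4.1 at 33.7 CPM per kb. LHCA6 had 0 counts in 18 of 24 root libraries and at most 2 counts in any, so no root change is given for it.

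The members also differed in how far their levels moved between the 8 shoot conditions. The ratio of the highest to the lowest condition mean was 7.44 for LHCB4.3, 5.16 for LHCB2.3, 3.63 for LHCB1.1 and 3.63 for LHCB7. It was lowest for PSAE2, a subunit at the ferredoxin side of photosystem I, at 1.35, and for the antenna gene LHCA2 at 1.38. The highest mean was found in MYC2-FLAG LP +BFO shoots for 18 members and in myc2-3 LP -BFO shoots for 9 members, all 9 of them antenna genes. The lowest mean was found in myc2-3 LP +BFO shoots for 23 members, 6 of them antenna genes. The next was MYC2-FLAG NC -BFO shoots for 11 members, all of them antenna genes. Bulk libraries do not tell fewer cells of a type from less RNA per cell, which holds for all values below.

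**Figure D1:**
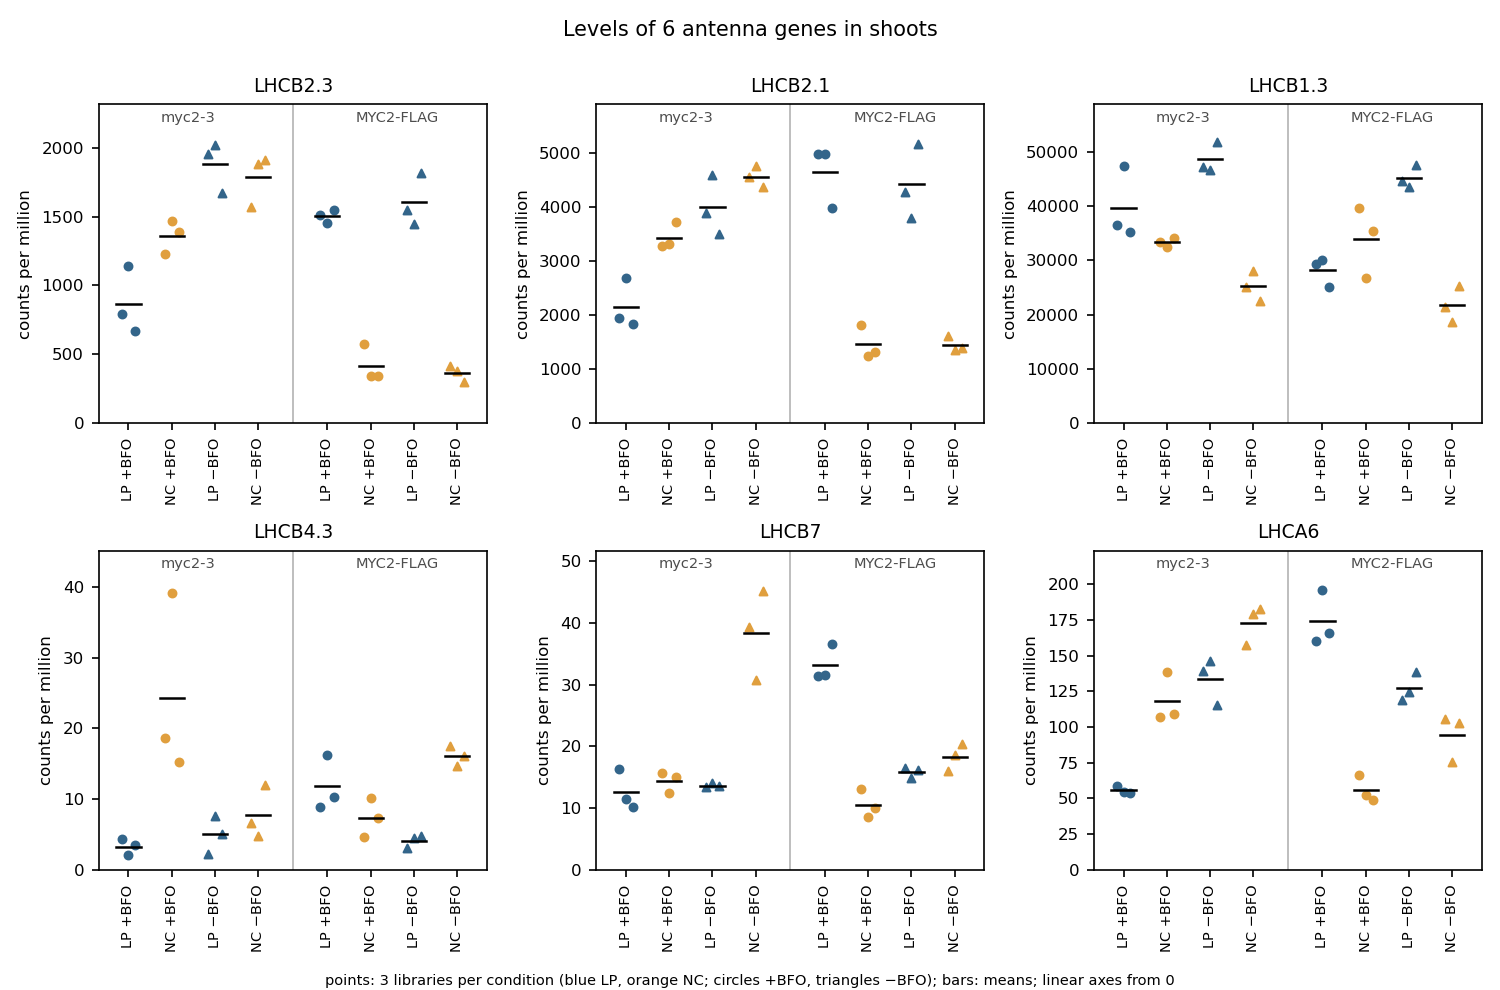
Levels of 6 antenna genes (CPM, 1 point per library, bars at the means of 3) in the 8 shoot conditions. LHCB2.3 lay between 299.6 and 573 CPM in MYC2-FLAG NC shoots with and without BFO and at 668 CPM or above in the other 6 conditions.

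The light comparison asks how the low light of LP changed these genes within each line and each BFO state. In MYC2-FLAG shoots without BFO, the members that were higher in LP in the fit over all 48 libraries were all antenna genes. Of the 41 members 11 were higher and 1 was lower in LP (adjusted p below 0.05 over all genes, edgeR's quasi-likelihood test), where 20% of all genes were higher and 25.1% lower. They were 11 of 19 antenna genes, among them all 7 of the major antenna, and 0 of 22 subunits passed. The separate fit to shoots gave 18 higher and 1 lower, against 22.7% and 24.5% of all genes. The split by class is given for the first fit only and may not hold for these 18. The median log2 fold change was 1.5 over the major antenna, 0.59 over the 19 antenna genes and 0.16 over the subunits, and antenna and subunits were not tested against each other.

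LHCB2.3, whose product is one of the LHCII proteins phosphorylated in state transitions, had 1551, 1445 and 1820 CPM in MYC2-FLAG LP -BFO shoots, against 415, 379 and 299.6 CPM in NC -BFO shoots. All LP libraries were far above all NC libraries. Its log2 fold change was 2.14 ± 0.27 (SE, adjusted p = 2.8e-08). LHCB2.1, its closest relative with LHCB2.2, had 4284, 3799 and 5168 CPM in LP, against 1606, 1346 and 1398 CPM in NC. These groups did not overlap either, and LHCB2.1 rose by 1.61 and LHCB2.2 by 1.5 on the log2 scale. The transcripts of these 2 genes are similar enough that 28.4% of the 150-base windows of LHCB2.1 match LHCB2.2 within 2 mismatches, so that their separate values are less certain than their common direction.

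The 3 LHCB1 copies among the members rose less evenly. LHCB1.1 (AT1G29920) had 14690, 15070 and 16590 CPM in MYC2-FLAG LP -BFO shoots, against 5415, 4450 and 7301 CPM in NC -BFO shoots. LHCB1.3 (AT1G29930) had 44590, 43610 and 47600 CPM in LP, against 21490, 18700 and 25360 CPM in NC. Neither gene overlapped between LP and NC. The log2 fold changes were 1.43 for LHCB1.1, 1.53 for LHCB1.2, 1.05 for LHCB1.3 and 1.12 for LHCB3. Smaller rises passed for LHCB4.2 (0.67), LHCB6 (0.66), LHCA4 (0.59) and LHCA6 (0.43).

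LHCB4.3, a minor antenna gene often set apart from the other LHCB4 copies, went the other way. It had 3.07, 4.52 and 4.77 CPM in MYC2-FLAG LP -BFO shoots, against 17.6, 14.7 and 16 CPM in NC -BFO shoots. The groups were well apart, although its levels were the lowest of any member in shoots. It fell by 1.95 on the log2 scale (adjusted p = 6.7e-05).

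With BFO, LP raised members of both classes in MYC2-FLAG shoots. A total of 13 members were higher and 0 lower in LP, where 22.6% of all genes were higher and 23.2% lower. They were 7 antenna genes and 6 subunits, 5 of these from photosystem II. A separate fit to the shoot libraries gave 25 higher members, against 24.3% of all genes, and a separate fit to MYC2-FLAG gave 20. Without NC +BFO replicate 2 the count was 8.

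LHCB2.3 had 1513, 1453 and 1547 CPM in MYC2-FLAG LP +BFO shoots, against 573, 338 and 341 CPM in NC +BFO shoots. LHCB7 (AT1G76570) had 31.3, 31.5 and 36.6 CPM in LP, against 13.1, 8.60 and 10.0 CPM in NC. LHCA6 (AT1G19150) had 160, 196 and 166 CPM in LP, against 66.4, 52.6 and 49.1 CPM in NC. In each of these 3 genes every LP library lay above every NC library, and the log2 fold changes were 1.85 for LHCB2.3, 1.65 for LHCB7 and 1.63 for LHCA6. LHCA5 rose by 0.81. Among the subunits, PSBO2, the second copy of the manganese-stabilising protein of water oxidation, had 2423, 2561 and 2405 CPM in LP, against 1073, 769 and 938 CPM in NC. Its log2 fold change was 1.41. PSBS, the sensor protein of energy-dependent quenching, had 1644, 1875 and 1555 CPM in LP, against 832, 626 and 650 CPM in NC, with no overlap and a log2 fold change of 1.27. PSBY (0.79), PSBX (0.66), PSBR (0.62) and PSAN (0.60) also rose.

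LHCB1.1 and LHCB1.3 were among the members that did not pass with BFO. LHCB1.3 had 29410, 30010 and 25180 CPM in MYC2-FLAG LP +BFO shoots, against 39690, 26760 and 35450 CPM in NC +BFO shoots, and the groups overlapped. The light response of LHCB1.3 differed between the BFO states by -1.32 on the log2 scale (+BFO minus -BFO, adjusted p = 0.028). The same difference was -1.57 for LHCB1.2 and had the opposite sign for LHCB4.3 (2.63), LHCB7 (1.85), PSBO2 (1.69), LHCA6 (1.21), PSBS (1.08) and LHCA5 (0.97). Thus 6 members were higher and 2 lower by this interaction, where 19% and 15.1% of all genes were.

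In myc2-3 shoots few members changed with light, and most of those that did were lower in LP. Without BFO 1 was higher and 3 were lower in LP, where 12% and 13.1% of all genes were. LHCB7 had 13.4, 14 and 13.5 CPM in myc2-3 LP -BFO shoots, against 39.3, 30.7 and 45.1 CPM in NC -BFO shoots, and fell by 1.5 on the log2 scale (adjusted p = 6.5e-07). The NC libraries were all clearly higher. LHCB1.3 rose by 0.95, and PSBS and LHCA5 fell by 0.65 and 0.41. Without any one of 5 of the 6 libraries compared (all but LP -BFO replicate 2) 1 member passed, and limma-voom gave 8.

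With BFO 0 members were higher and 9 were lower in LP in myc2-3 shoots, where 14.1% and 15.6% of all genes were. The separate fit to shoots gave 23 lower members, against 19.4% of all genes. LHCB4.3 had 4.29, 2.07 and 3.48 CPM in myc2-3 LP +BFO shoots, against 18.7, 39.2 and 15.3 CPM in NC +BFO shoots. LHCA6 had 58.9, 54.5 and 53.6 CPM in LP, against 107, 138 and 109 CPM in NC. Neither gene overlapped, with log2 fold changes of -2.83 and -1.08. PSBS and PSBY each fell by 1.00, PSBO2 by 0.90, PSBQ1 by 0.80, LHCA5 by 0.79 and both PSAH copies, which dock the LHCII antenna at photosystem I, by 0.59. No gene of the major antenna passed, and the median over its 7 genes was -0.26. The light response differed between the BFO states for 3 members, higher with BFO for LHCB7 (1.31) and lower for LHCB4.3 (-2.19) and LHCA6 (-0.71), where 6.14% of all genes were higher and 8.35% lower. The separate fit to shoots gave 13 members, and 1 passed without LP -BFO replicate 2.

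**Figure D2:**
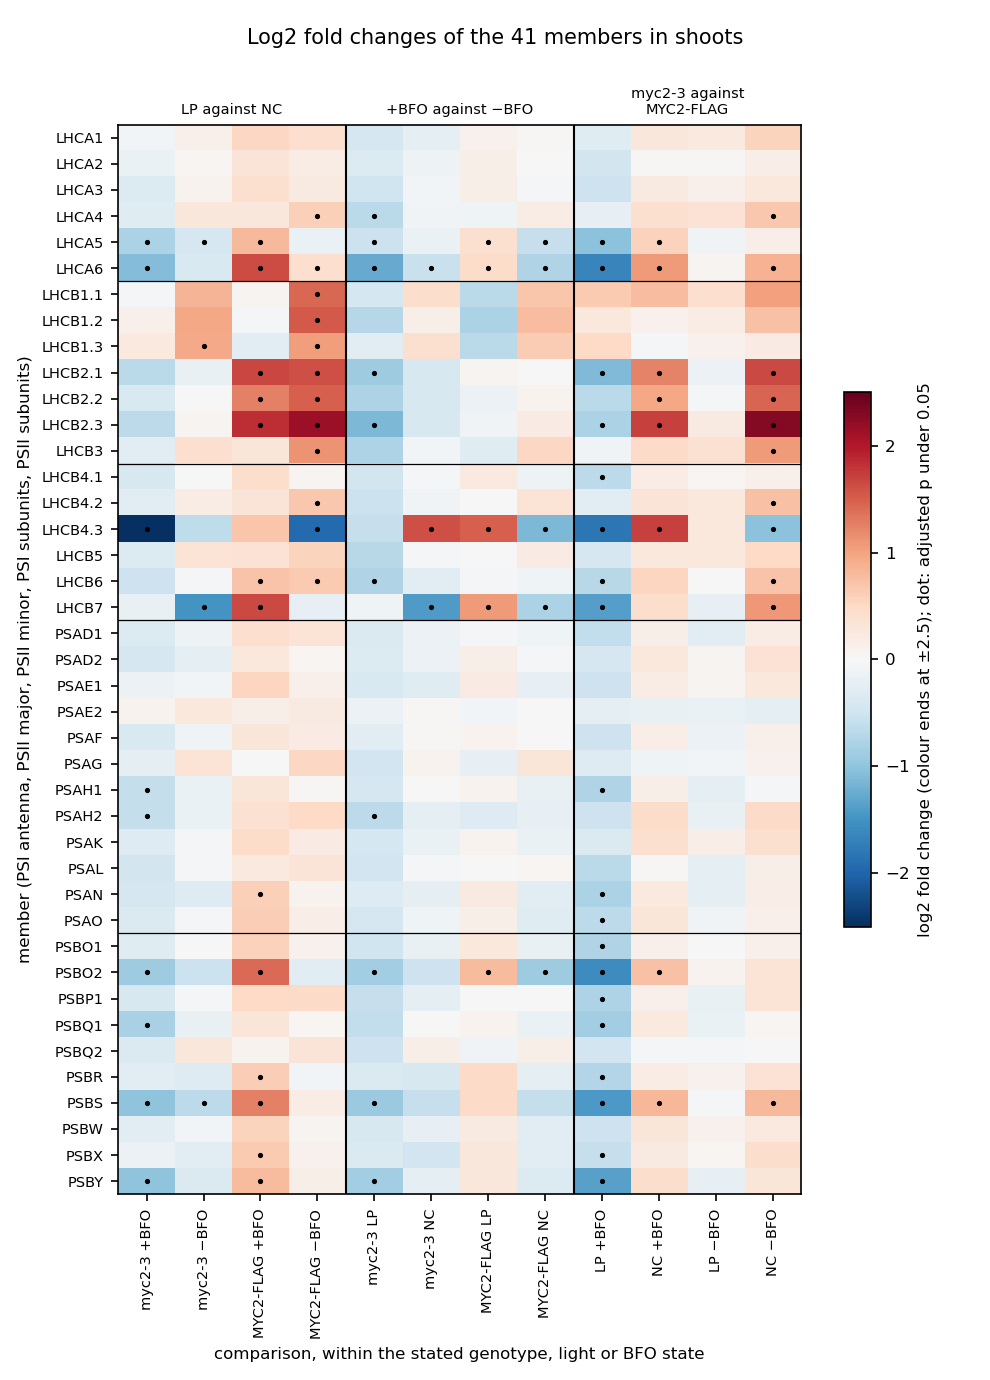
Log2 fold changes of the 41 members (down the page, by class) in the 12 shoot comparisons of light (LP against NC), BFO (+BFO against -BFO) and line (myc2-3 against MYC2-FLAG), with dots where the adjusted p was below 0.05 and colours ending at 2.5 and -2.5. All 7 genes of the major antenna carried dots in MYC2-FLAG -BFO light, and no member did between the lines in LP -BFO.

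The light responses differed between the lines in shoots. In the test of the difference itself, averaged over both BFO states, 19 members had a lower response to LP in myc2-3 than in MYC2-FLAG and 0 a higher one, where 21.2% of all genes had a lower and 24.4% a higher one. Limma-voom gave 29 members and the separate fit to shoots 35, against 25.3% of all genes. LHCB2.3 had the largest difference at -2.28 ± 0.26 (SE, adjusted p = 1.9e-09), followed by LHCB2.1 at -2.07, LHCA6 at -1.76, LHCB2.2 at -1.57, LHCB7 at -1.56, PSBS at -1.55 and PSBO2 at -1.28. LHCA5 (-0.93) and LHCB4.3 (-1.1) were also among the 19, with 9 antenna genes and 10 subunits in all. As the condition profiles of the lines did not line up, these differences hold for the labels as given.

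BFO was compared with its absence within each line and light. In myc2-3 LP shoots 10 members were lower and 0 higher with BFO, where 11.1% of all genes were lower and 13% higher. The separate fit to shoots gave 29 lower members, against 14.3% of all genes, and limma-voom gave 19 in all. The count was 4 without LP +BFO replicate 3 or LP -BFO replicate 2, and 6 without LP +BFO replicate 1 or LP -BFO replicate 1. LHCA6 had 58.9, 54.5 and 53.6 CPM in myc2-3 LP +BFO shoots, against 139, 146 and 116 CPM in LP -BFO shoots. LHCB2.3 had 792, 1141 and 668 CPM with BFO, against 1954, 2019 and 1674 CPM without. Both genes were clearly lower in all 3 libraries with BFO, by 1.26 for LHCA6 and 1.12 for LHCB2.3 on the log2 scale. PSBS fell by 0.93, LHCB2.1 by 0.89, PSBO2 by 0.87, PSBY by 0.86, LHCB6 by 0.74, LHCA4 by 0.68, PSAH2 by 0.66 and LHCA5 by 0.54.

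In the other 3 shoot comparisons BFO changed few members, always with LHCB4.3, LHCB7 and LHCA6 among them. In myc2-3 NC shoots LHCB4.3 rose by 1.61, while LHCB7 and LHCA6 fell by 1.41 and 0.55. These 3 were the only members that passed, where 19.7% of all genes were higher and 16.2% lower, while limma-voom gave 6 members and the separate fit to shoots 8. In MYC2-FLAG NC shoots 5 members were lower with BFO (LHCB4.3 by 1.13, PSBO2 by 0.90, LHCB7 by 0.78, LHCA6 by 0.76 and LHCA5 by 0.57), where 13.4% of all genes were lower and 11.3% higher. In MYC2-FLAG LP shoots the same 5 genes were higher with BFO (LHCB4.3 by 1.5, LHCB7 by 1.07, PSBO2 by 0.79, LHCA6 by 0.45 and LHCA5 by 0.40), where 17.6% of all genes were higher and 14.2% lower. The NC count was 3 without NC +BFO replicate 2. The LP count was 3 without LP +BFO replicate 2 or LP -BFO replicate 1, and 2 without LP -BFO replicate 2. The separate fit to shoots gave 10 members in each.

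The BFO response in shoots, averaged over light, had a negative difference between the lines (myc2-3 minus MYC2-FLAG) for LHCB7 (-0.90), LHCB2.3 (-0.81), LHCA6 (-0.76) and PSBS (-0.69). These 4 of 41 stood against 14% of all genes with a negative and 15.4% with a positive difference. Limma-voom gave 12 members and the separate fit to shoots 18. LHCB2.3 no longer passed in DESeq2.

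The lines were then compared directly in each condition. In NC -BFO shoots myc2-3 had 10 members above and 1 below the level of MYC2-FLAG, where 17.9% of all genes were higher and 22% lower. LHCB2.3 had 1569, 1880 and 1909 CPM in myc2-3, against 415, 379 and 299.6 CPM in MYC2-FLAG. The myc2-3 libraries were all several-fold above those of MYC2-FLAG, and the log2 fold change was 2.29 (adjusted p = 5.2e-09). LHCB2.1 (1.65), LHCB2.2 (1.46), LHCB7 (1.07), LHCB3 (1.07) and LHCA6 (0.87) were also higher, and LHCB4.3 was lower (-1.03). With NC +BFO 8 members were higher in myc2-3 and 0 lower, where 7.94% of all genes were higher and 6.55% lower. They included LHCB2.3 (1.71), LHCB4.3 (1.70), LHCB2.1 (1.24) and LHCA6 (1.07). The count was 5 without MYC2-FLAG NC +BFO replicate 2 or replicate 3. Limma-voom gave 18 members for NC -BFO, and the separate fit to shoots gave 21 and 13.

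In LP the 2 BFO states differed in what the lines showed. In LP -BFO shoots 0 members passed by edgeR, and 0 had an unadjusted p below 0.05, where 7.01% of all genes were higher and 7.4% lower. DESeq2 and limma-voom also gave 0, and the separate fit to shoots 1. In LP +BFO shoots 19 members were lower in myc2-3 and 0 higher, where 22.7% of all genes were lower and 25.4% higher. Of these, 8 were antenna genes and 11 subunits, with 8 of 10 from photosystem II. PSBO2 had 821, 959 and 702 CPM in myc2-3, against 2423, 2561 and 2405 CPM in MYC2-FLAG, with no overlap and a log2 fold change of -1.57. The log2 fold changes were -1.64 for LHCA6, -1.81 for LHCB4.3, -1.44 for PSBS and -1.39 for LHCB7. The count was 29 without myc2-3 LP +BFO replicate 2, which had the highest antenna levels of its group, 12 without replicate 3, 30 by limma-voom and 35 by the separate fit to shoots. In replicate 2 of that group 4.08% of reads lay outside genes and 5.23% aligned to several places. Replicates 1 and 3 had 2.37 and 2.64% outside genes, against at most 2.23% in the other shoot conditions. The part of these traits was not tested.

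The most abundant member of each other class and LHCA5 were compared in the same way. LHCA4 (AT3G47470) had 10870, 11260 and 12000 CPM in MYC2-FLAG LP -BFO shoots, against 7644, 6744 and 8299 CPM in NC -BFO shoots. PSAF (AT1G31330) had 4760, 4376 and 6239 CPM in LP -BFO, against 4689, 4028 and 4666 CPM in NC -BFO. LHCA4 did not overlap between LP and NC and passed the test (log2 fold change of 0.59), and PSAF overlapped and did not pass (0.20). PSBO1 (AT5G66570) had 4382, 5554 and 4107 CPM in myc2-3 LP +BFO shoots, against 7670, 8333 and 7486 CPM in MYC2-FLAG LP +BFO shoots. LHCB5 (AT4G10340) had 7136, 7891 and 6500 CPM in myc2-3 LP +BFO, against 10010, 10060 and 8811 CPM in MYC2-FLAG LP +BFO. Both genes were lower in every myc2-3 library, and PSBO1 passed the test (-0.74) while LHCB5 did not (-0.42). LHCA5 (AT1G45474) had 97.5, 96.6 and 88.3 CPM in myc2-3 LP +BFO shoots, against 177, 216 and 181 CPM in MYC2-FLAG LP +BFO shoots, again with no overlap, and a log2 fold change of -1.02.

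The antenna was set against the subunits within each library as the mean log2 CPM of the 7 major antenna genes minus that of the 22 subunits. In MYC2-FLAG -BFO shoots this difference was 1.87 ± 0.0529 in LP, against 0.55 ± 0.0502 in NC. With BFO it was 1.35 ± 0.0469 in LP, against 1.15 ± 0.14 in NC. In myc2-3 shoots it was 2.1 ± 0.105 in LP and 1.53 ± 0.0761 in NC without BFO, and 1.87 ± 0.00643 in LP and 1.67 ± 0.0981 in NC with BFO (SD, n = 3 each). By this measure all LP libraries were above all NC libraries in both lines and both BFO states, and the MYC2-FLAG NC -BFO libraries, at 0.49 to 0.58, were the lowest of all shoots. Over all 19 antenna genes the difference did not separate LP from NC in myc2-3 +BFO shoots, at -0.04 to 0.19 in LP and 0.06 to 0.19 in NC. It was 0.17 to 0.32 in LP and 0.01 to 0.05 in NC in myc2-3 -BFO shoots, -0.03 to 0.10 in LP and -0.47 to -0.39 in NC in MYC2-FLAG -BFO shoots, and -0.06 to -0.03 in LP and -0.32 to -0.19 in NC in MYC2-FLAG +BFO shoots. Log2 CPM uses a prior count of 2 and is not scaled by length, so that these are differences to compare between libraries and not ratios of protein subunits.

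**Figure D3:**
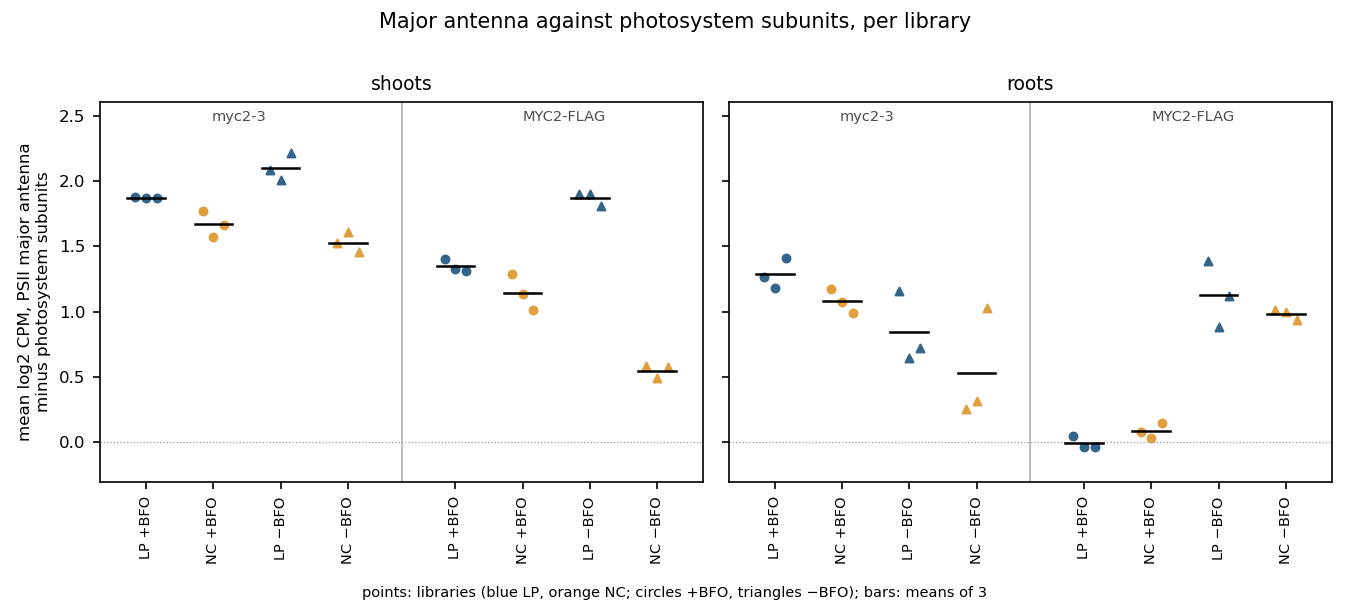
Mean log2 CPM of the 7 major antenna genes minus that of the 22 subunits, 1 point per library, in shoots and roots. MYC2-FLAG NC -BFO shoots lay at 0.49 to 0.58 and MYC2-FLAG LP -BFO shoots at 1.81 to 1.90.

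Copies of one protein did not keep constant proportions. Per kilobase, PSBO2 made up 26.3 ± 0.434% of the PSBO total in MYC2-FLAG LP +BFO shoots, against 16.7 ± 0.462% in NC +BFO shoots. Without BFO it was the other way, with 20 ± 0.841% in LP and 24.6 ± 1.87% in NC. In myc2-3 shoots it made up 16.7 ± 0.706% in LP +BFO, 23.1 ± 0.571% in NC +BFO, 20.7 ± 0.926% in LP -BFO and 27.3 ± 1.2% in NC -BFO (SD, n = 3 each). LHCB2.3 made up 10.1 ± 1.18% of the LHCB2 total in MYC2-FLAG NC -BFO shoots and 10.9 ± 1.12% in NC +BFO shoots, below the means of 14.1 to 17.5% in the other 6 shoot conditions. LHCB1.1 held 15.3 to 23.8% of the LHCB1.1, LHCB1.2 and LHCB1.3 total in the shoot conditions and 0.899 to 7.25% in the root conditions. Of the 150-base windows of these genes, 10% in LHCB1.1, 9.99% in LHCB1.3 and 1.4% in LHCB1.2 match another LHCB1 copy within 2 mismatches. The LHCB1 shares and separate LHCB1 changes are less certain for that reason.

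Other genes of the pathway moved beside the members in shoots. Of 9 regulators, which include GLK1, GLK2, HY5 and plastid sigma factors, 9 rose in LP in MYC2-FLAG +BFO shoots, with SIG5 at 3.15 and GLK2 at 2.15 on the log2 scale, where 22.6% of all genes were higher. In myc2-3 -BFO shoots, which are of the other BFO state, 8 of the 9 fell, where 13.1% of all genes were lower. These counts are of unlike BFO states and do not compare the lines. With both BFO states averaged, the LP response was tested as myc2-3 minus MYC2-FLAG. All 9 regulators passed with a negative value (median of -1.57), as did 4481 of all 21098 genes. The LP response of the regulators was higher with than without BFO for 8 of 9 in MYC2-FLAG shoots (median difference of 1.11). In myc2-3 shoots it was higher for 4 of 9 (median difference of 0.568). Of all 21098 genes, 4009 were higher in MYC2-FLAG and 1296 in myc2-3 by this difference. GLK2 had 316, 300 and 254 CPM in MYC2-FLAG LP +BFO shoots, against 70.3, 63.8 and 61.5 CPM in NC +BFO shoots, a wide gap. Of 14 genes of chlorophyll synthesis, 7 rose in LP without and 10 with BFO in MYC2-FLAG, and 9 fell in myc2-3 with BFO, where 20% and 22.6% of all genes were higher and 15.6% lower. In MYC2-FLAG with BFO, the chlorophyll b maker CAO rose by 1.89 and GUN4, which stimulates magnesium chelatase, by 1.98. In MYC2-FLAG without BFO all 4 genes of chlorophyll breakdown fell in LP, with NYC1, a chlorophyll b reductase, at -1.84, where 25.1% of all genes were lower. The LP response of all 4 was higher with than without BFO in MYC2-FLAG (median difference of 1.32), as for 4009 of all 21098 genes.

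Genes of the circadian clock also moved with these conditions. CCA1, a morning gene, had 100, 93.4 and 100.4 CPM in MYC2-FLAG LP +BFO shoots, against 11.2, 8.32 and 8.29 CPM in NC +BFO shoots. LUX, an evening gene, had 22.0, 24.9 and 23.1 CPM in LP, against 104, 99.1 and 112 CPM in NC. In myc2-3 NC -BFO shoots CCA1 had 186, 173 and 181 CPM, against 15.9, 15.6 and 16.7 CPM in MYC2-FLAG NC -BFO shoots. Of the 9 clock genes 8 passed for LP in MYC2-FLAG -BFO shoots, 7 in MYC2-FLAG +BFO, 6 in myc2-3 -BFO and 4 in myc2-3 +BFO. Of all genes 20% were higher and 25.1% lower in MYC2-FLAG -BFO, 22.6% and 23.2% in MYC2-FLAG +BFO, 12% and 13.1% in myc2-3 -BFO, and 14.1% and 15.6% in myc2-3 +BFO. All plants were harvested at the same hour of the morning according to the study's methods, and the part of the clock genes in the member changes was not tested. The summed shoot markers also differed, from 174 to 192 CPM in MYC2-FLAG LP -BFO shoots, against 102 to 120 CPM in NC -BFO shoots, and their part was not tested either.

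In roots the members were scarce, and the light comparison gave its clearest result in MYC2-FLAG without BFO. There 33 of 41 members were higher in LP and 0 lower, where 7.66% of all genes were higher and 6.41% lower. Members of both classes rose, with 14 of 19 antenna genes and 19 of 22 subunits, and medians of 1.2 and 1.35 on the log2 scale. The mean level was highest in this condition for 36 of the 41 members over the 8 root conditions, a count that includes LHCA6 despite its few reads. LHCB1.3 had 604, 492 and 558 CPM in MYC2-FLAG LP -BFO roots, against 135, 170 and 147 CPM in NC -BFO roots. PSAF, which binds the electron donor plastocyanin at photosystem I, had 35.2, 28.2 and 37.7 CPM in LP, against 8.77, 14 and 13.0 CPM in NC. PSBO1, the main copy of the manganese-stabilising protein, had 63.6, 63.1 and 74.6 CPM in LP, against 21.8, 37.3 and 28 CPM in NC. None of these groups overlapped, and the log2 fold changes were 1.87 ± 0.35, 1.5 ± 0.30 and 1.2 ± 0.27 (SE). LHCB5, a minor antenna gene, rose by 1.45 and LHCA4 by 0.91. The LP -BFO libraries had 5.9, 5.8 and 5.32% of reads aligned to several places, against 1.86 to 4.61% in the other MYC2-FLAG roots. Their organellar genes held 1.0, 0.81 and 0.82% of the counts, against 0.24 to 0.52%. The same libraries enter the BFO and line comparisons of LP roots below, and the part of these traits was not tested.

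Some other genes of green tissue were raised in the same roots. The sum of the leaf genes RBCS1A, RCA and CA1 was 154 to 188 CPM in MYC2-FLAG LP -BFO roots, against 48 to 82.6 CPM in NC -BFO roots. Of 10 electron carrier and ATP synthase genes 9 rose, where 7.66% of all genes were higher. GLK1, picked from the 9 regulators, rose by 2.23 on the log2 scale. The 7 shoot markers, which mark leaf polarity and stomata and not chloroplasts, summed to 0.0927 to 0.376 CPM in LP -BFO roots and 0 to 0.432 CPM in NC -BFO roots. The part of leaf RNA in the member changes was not tested.

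With BFO this light response was not seen in MYC2-FLAG roots. No member (0 of 41) passed by edgeR, where 1.5% of all genes were higher and 1.1% lower, and 2 had an unadjusted p below 0.05. DESeq2 and limma-voom also gave 0. The response to LP was lower with than without BFO for 21 members and higher for 0, where 7.47% of all genes were lower and 6.74% higher. LHCB2.3 (-3.93), LHCB1.3 (-2.27), PSAF (-1.86), LHCB5 (-1.53) and PSBO1 (-1.22) were among them. LHCB2.3 had at most 33 counts in a root library and rested on few reads. The count was 10 without LP +BFO replicate 2, 11 without replicate 3, 12 without NC +BFO replicate 3, 11 by the separate fit to roots and 28 by the separate fit to MYC2-FLAG. By the same difference 4 of 10 electron carrier and ATP synthase genes were lower and 0 higher. For the regulators it was 1 of 9 lower and 0 higher, and for chlorophyll synthesis 1 of 14 lower and 0 higher.

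**Figure D4:**
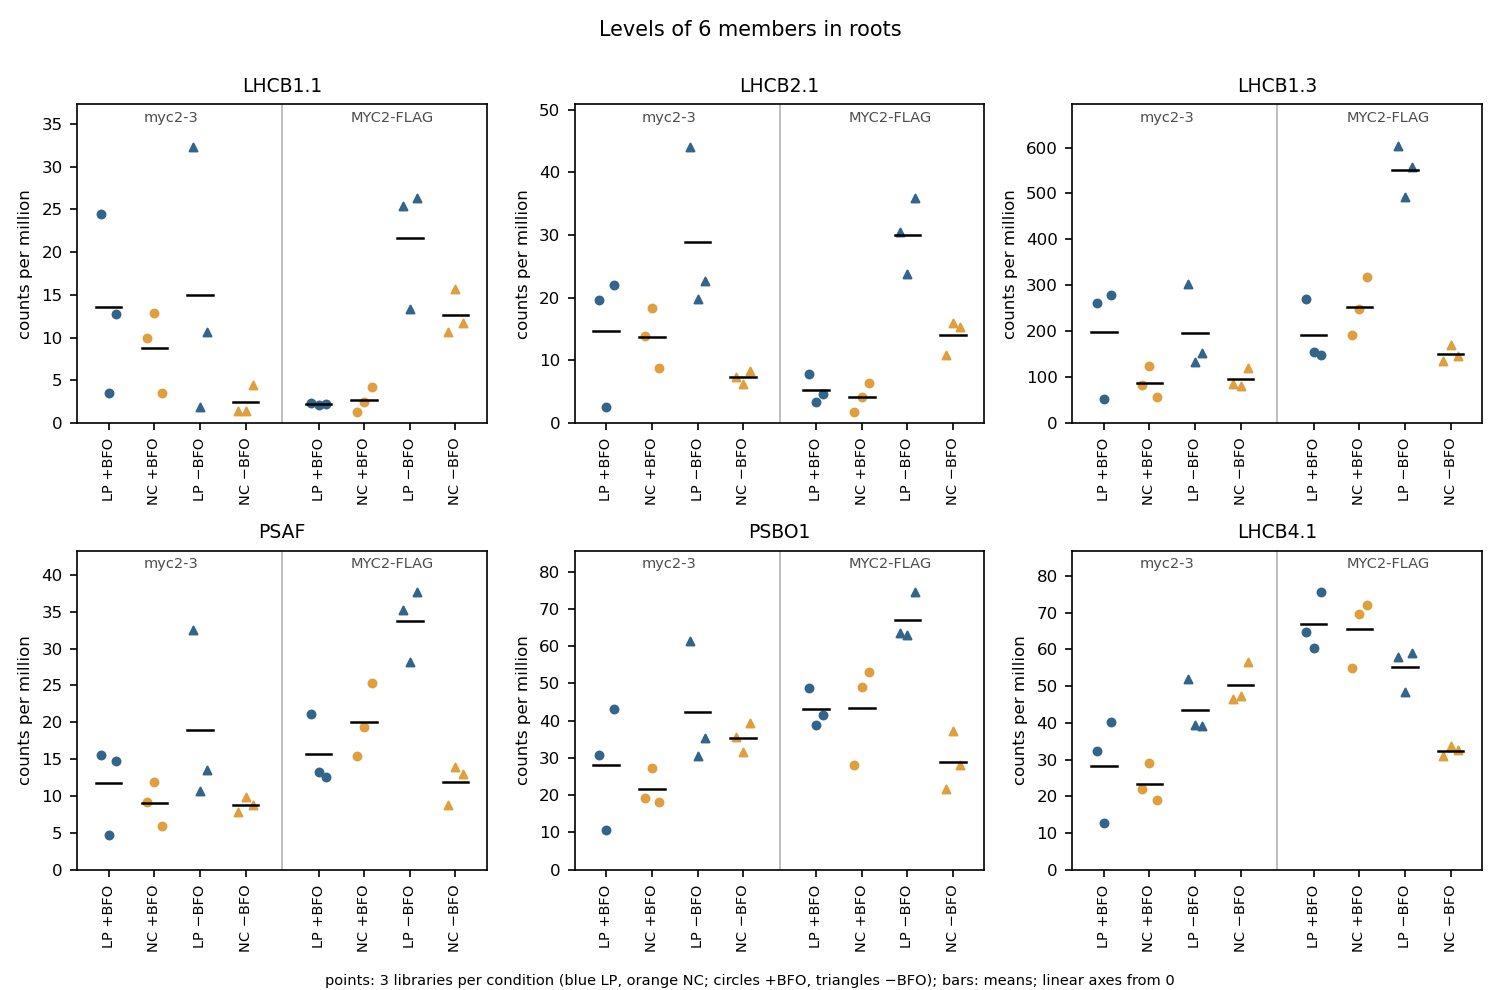
Levels of 6 members (CPM, 1 point per library, bars at the means of 3) in the 8 root conditions. LHCB1.3 lay at 492 to 604 CPM in MYC2-FLAG LP -BFO roots and at 318 CPM or below in the other 7 conditions.

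In myc2-3 roots the light response rested on single libraries. Without BFO 16 members were higher and 1 was lower in LP, where 8.29% and 7.84% of all genes were, but 2 passed without LP -BFO replicate 1. The counts were 6, 7 and 10 without NC -BFO replicate 1, 2 and 3, 6 by limma-voom and 8 by the separate fit to roots. LHCB1.1 had 32.4, 1.87 and 10.6 CPM in myc2-3 LP -BFO roots, against 1.44, 1.45 and 4.44 CPM in NC -BFO roots, and the groups overlapped. PSAF had 32.5, 10.6 and 13.6 CPM in LP, against 7.87, 9.81 and 8.77 CPM in NC, with replicate 1 well above the others. The leaf gene sum in these roots was 47.3 to 125 CPM in LP, against 36.2 to 60.2 CPM in NC. With BFO only LHCB1.3 passed (1.17), where 5.24% of all genes were higher and 6.98% lower. It had 262, 52.0 and 278 CPM in LP +BFO roots, against 81.8, 124 and 57.3 CPM in NC +BFO roots. Without LP +BFO replicate 2, the low library, 15 members passed. Without LP +BFO replicate 1 or 3, or NC +BFO replicate 1 or 3, 0 did. The light response differed between the BFO states for 1 member, LHCB2.1 (-1.86), where 11.5% of all genes were higher and 12.8% lower. DESeq2 gave 5 members. The count was 4 without LP +BFO replicate 3 or NC +BFO replicate 3, 3 without LP -BFO replicate 2, and 2 without LP +BFO replicate 1 or 2, LP -BFO replicate 3 or NC -BFO replicate 3.

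Averaged over BFO, the difference in light response between the lines was not found in roots, and it was not tested within each BFO state. For the average 0 members passed, 3 had an unadjusted p below 0.05, DESeq2 gave 1 and limma-voom 0, where 0.341% of all genes were higher and 0.393% lower.

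BFO lowered the members in MYC2-FLAG roots under LP. There 26 were lower and 1 was higher with BFO, where 22.5% of all genes were lower and 21.4% higher. The major antenna had the largest changes, with 6 of 7 genes lower and a median of -2.51, against 16 of 22 subunits and a median of -1.01. LHCB1.1 had 2.33, 2.11 and 2.28 CPM in MYC2-FLAG LP +BFO roots, against 25.4, 13.3 and 26.3 CPM in LP -BFO roots, with a log2 fold change of -3.26 ± 0.60 (SE). LHCB2.1 had 7.77, 3.40 and 4.66 CPM with BFO, against 30.4, 23.8 and 35.9 CPM without. Both genes were low in every library with BFO. LHCB1.2 fell by 3.11, LHCB2.2 by 2.51 and LHCB1.3 by 1.53. LHCB7 was the exception, with 3.44, 3.64 and 4.93 CPM with BFO, against 0.908, 2.53 and 3.34 CPM without, and rose by 0.80. The leaf gene sum was 64.8 to 103 CPM with BFO, against 154 to 188 CPM without, and LHY and CCA1 fell by 3.48 and 2.04; the part of either was not tested.

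In MYC2-FLAG NC roots the major antenna copies went in both directions. LHCB1.1 had 1.33, 2.48 and 4.21 CPM with BFO, against 10.6, 15.7 and 11.7 CPM without, and LHCB2.1 had 1.74, 4.16 and 6.40 CPM with BFO, against 10.8, 16 and 15.3 CPM without. Neither gene overlapped, and they fell by 2.22 and 1.75 on the log2 scale, as did LHCB1.2 by 1.22. PSBQ2 (1.15), LHCB4.1 (1.02), PSAE2 (1.01), PSAG (1.00) and LHCB7 (0.84) rose. LHCB2.3, which had 1.74, 1.15 and 0.789 CPM with BFO, against 0, 0.216 and 0.108 CPM without, passed too (3.2), on few reads. These 6 higher and 3 lower members stood against 18% and 16.7% of all genes, and the separate fit to MYC2-FLAG gave 15 in all.

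In myc2-3 roots a few members were lower with BFO, a smaller share than among all genes under both NC and LP. Under NC 1 was higher and 5 were lower, where 12.3% and 13.5% of all genes were. LHCB4.1, a CP29 gene, had 22.1, 29.2 and 18.9 CPM with BFO, against 46.5, 47.4 and 56.6 CPM without, a fall of 1.1 on the log2 scale with no overlap. The count was 3 without NC +BFO replicate 1 or 3, NC -BFO replicate 3 or in the separate fit to roots, and 2 by limma-voom. Under LP 0 were higher and 7 lower, where 19.1% and 23.1% of all genes were, with LHCB7 at -1.31 and PSAN at -1.07. That count was 1 without LP +BFO replicate 2, 2 without LP -BFO replicate 1, 11 without LP -BFO replicate 2 and 4 in the separate fit to roots.

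The BFO response of some members differed between the lines in roots, 4 of the 7 major antenna genes among them. Averaged over light, the response in myc2-3 was higher than in MYC2-FLAG for LHCB1.1 (3.64), LHCB1.2 (3.08), LHCB4.3 (2.78), LHCB2.1 (2.11) and LHCB2.2 (1.86). It was lower for LHCB7 (-1.88), LHCB4.1 (-1.5), PSAN (-1.44), PSAE2 (-1.12) and LHCB4.2 (-0.64). LHCB1.3 (0.34), LHCB3 (0.64) and LHCB2.3 (-1.99) did not pass. These 5 higher and 5 lower members of 41 were a smaller share than the 28% and 30.6% of all genes. The root profiles of the lines were closest across opposite BFO labels, so that the differences hold only for the labels as given. LHCB4.3 had at most 14 counts in a root library and no longer passed in limma-voom.

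**Figure D5:**
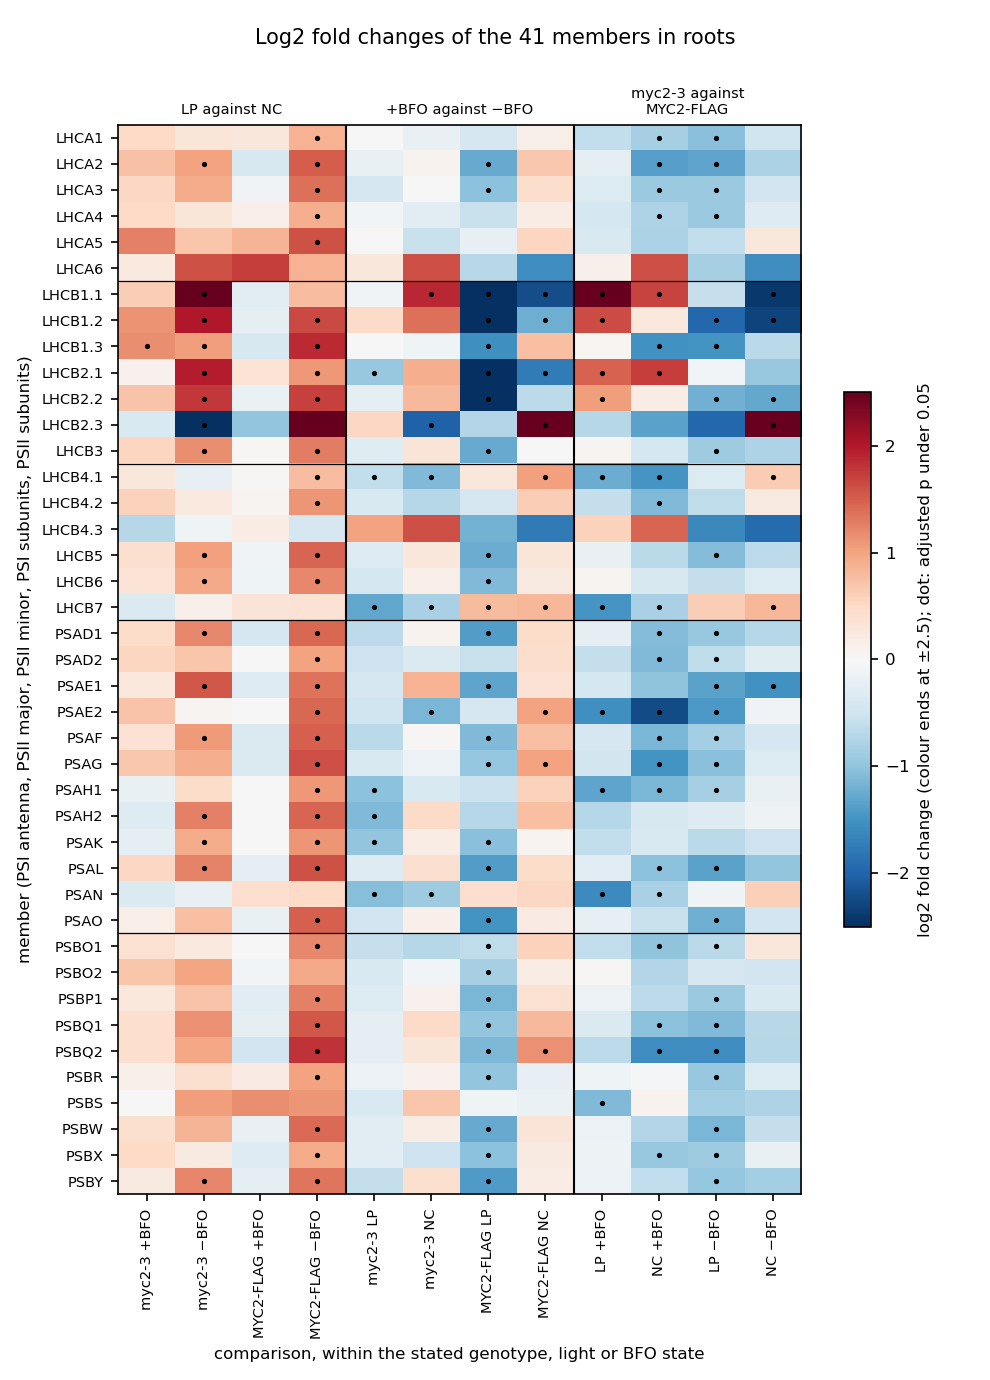
Log2 fold changes of the 41 members in the 12 root comparisons of light, BFO and line, drawn as for shoots, with dots where the adjusted p was below 0.05. In MYC2-FLAG -BFO light 33 members carried dots, all higher, and in MYC2-FLAG LP BFO 26 lower and 1 higher.

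Between the lines in roots, most members that passed were lower in myc2-3. In LP -BFO roots 26 were lower and 0 higher, where 21.5% of all genes were lower and 22.2% higher. LHCB1.3 had 304, 132 and 153 CPM in myc2-3, against 604, 492 and 558 CPM in MYC2-FLAG, with no overlap and a log2 fold change of -1.49. LHCB5 (-1.08), LHCA4 (-0.93), PSAF (-0.86) and PSBO1 (-0.67) were lower too. The count was 13 without myc2-3 LP -BFO replicate 2 or replicate 3. The leaf gene sum was 47.3 to 125 CPM in myc2-3, against 154 to 188 CPM in MYC2-FLAG. In NC +BFO roots 20 were lower and 2 higher, where 17.9% and 16.8% of all genes were, with PSAE2 lowest at -2.24 and LHCB2.1 (1.72) and LHCB1.1 (1.70) higher. That count of 22 was 12 without MYC2-FLAG NC +BFO replicate 2, 14 without myc2-3 NC +BFO replicate 1, and 13 without replicate 3 of either line.

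In NC -BFO roots 3 members were higher and 4 lower in myc2-3, where 16.7% and 15.4% of all genes were, with LHCB1.1 at -2.41 and LHCB1.2 at -2.32. LHCB2.3 had 1.55, 0.965 and 3.57 CPM in myc2-3, against 0, 0.216 and 0.108 CPM in MYC2-FLAG, so that it was higher in every myc2-3 library (3.89), opposite to the other LHCB copies named. In LP +BFO roots 4 were higher and 6 lower, where 19.8% and 21.5% of all genes were. All 4 that were higher belonged to the major antenna, and of the 6 lower ones 4 were subunits and 2 minor antenna genes. LHCB1.1 had 24.4, 3.5 and 12.8 CPM in myc2-3, against 2.33, 2.11 and 2.28 CPM in MYC2-FLAG. The myc2-3 libraries were scattered but all above those of MYC2-FLAG, and the log2 fold change was 2.58. Within these libraries the major antenna minus the subunits was 1.29 ± 0.114 in myc2-3, against -0.01 ± 0.0485 in MYC2-FLAG, and in NC +BFO roots it was 1.08 ± 0.0942 in myc2-3, against 0.09 ± 0.0574 in MYC2-FLAG (SD, n = 3 each). Without BFO the groups overlapped in LP, at 0.84 ± 0.279 in myc2-3 and 1.13 ± 0.252 in MYC2-FLAG.

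Fewer members passed when a log2 fold change of at least 1 in size was required as well. For light in MYC2-FLAG shoots without BFO, 7 members were higher in LP (11% of all genes) and 1 lower (7.98%). With BFO 7 were higher (10.5%) and 0 lower (8.54%). In myc2-3 shoots 0 were higher (3.79%) and 1 lower (3.47%) without BFO, and 0 higher (4.58%) and 3 lower (3.12%) with BFO. In MYC2-FLAG roots without BFO 29 members were still higher (1.92%) and 0 lower (2.26%), and with BFO 0 were higher (0.559%) and 0 lower (0.322%). In myc2-3 roots 13 were higher (2.85%) and 1 lower (1.87%) without BFO, and 1 higher (0.654%) and 0 lower (3.14%) with BFO.

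For BFO the same rule left 21 members lower (7.87%) and 0 higher (7.96%) in MYC2-FLAG LP roots, and 3 lower (7.16%) and 5 higher (4.89%) in MYC2-FLAG NC roots. In myc2-3 roots 4 were lower (9.58%) and 0 higher (6.86%) in LP, and 3 lower (3.48%) and 1 higher (5.44%) in NC. In myc2-3 shoots 2 were lower (2.65%) and 0 higher (4.91%) in LP, and 1 lower (5.69%) and 1 higher (8.86%) in NC. In MYC2-FLAG shoots 0 were lower (4.24%) and 2 higher (5.54%) in LP, and 1 lower (2.95%) and 0 higher (3.16%) in NC. Those 2 higher members were LHCB4.3 and LHCB7.

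Between the lines, 5 members were higher (8.07%) and 1 lower (8.44%) in myc2-3 NC -BFO shoots, and 4 higher (2.48%) and 0 lower (1.41%) in NC +BFO shoots. In LP shoots 0 were higher (1.61%) and 0 lower (1.98%) without BFO, and 0 higher (9.99%) and 8 lower (9.39%) with BFO. In roots 1 was higher (4.24%) and 4 lower (6.85%) in NC -BFO, 2 higher (6.67%) and 14 lower (5.04%) in NC +BFO, 0 higher (8.84%) and 14 lower (8.46%) in LP -BFO, and 4 higher (5.91%) and 6 lower (8.56%) in LP +BFO. All 41 members stayed higher in shoots than in roots, where 22.8% of all genes were higher and 25.3% lower in myc2-3, and 21.5% higher and 24.4% lower in MYC2-FLAG.

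Among the differences of responses, 9 members had a lower (9.54%) and 0 a higher (8.93%) light response in myc2-3 shoots than in those of MYC2-FLAG, and none of the 41 a lower (0.185%) or higher (0.104%) one in roots. For the BFO response 0 were lower (4.37%) and 0 higher (5.27%) in shoots, and 4 lower (13.9%) and 5 higher (13.3%) in roots. The light response with BFO minus that without was higher for 1 member (2.79%) and lower for 1 (3.88%) in myc2-3 shoots, and higher for 5 (9.78%) and lower for 2 (7.75%) in MYC2-FLAG shoots. In roots it was higher for 0 (4.22%) and lower for 1 (8.1%) in myc2-3, and higher for 0 (3.63%) and lower for 21 (2.53%) in MYC2-FLAG.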

How the data were processed

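The authors sequenced libraries from total RNA as single 150-base reads, checked them with FastQC, aligned them to the TAIR10 genome with TopHat2 and counted reads per gene with HTSeq on the strand of the gene, and they deposited raw counts for 48 libraries in 2 tables. The deposited tables set aside reads that aligned to several places (1.46 to 5.9% of a library), reads outside genes (1.23 to 4.08%) and ambiguous reads (0.451 to 0.9%) from the gene counts, which can lower near-identical copies such as LHCB2.1 and LHCB2.2. These entries stayed out of library sizes and tests. The study's methods describe 3 biological replicates per condition from an RNA-seq experiment done once. They add that in many myc2-3 libraries most reads came from a latent virus. From how the myc2-3 samples grouped, the authors held that it did not significantly affect the plant transcriptome. Only plant genes are counted here. No library pair agreed within sampling noise.

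From these counts, genes with a total above 100 were kept (21098), scaled by the trimmed mean of M values and tested with edgeR 4.0.16 in R 4.3.3 (quasi-likelihood test, 1 mean per condition over all 48 libraries, trended dispersion, Benjamini-Hochberg adjustment over all tested genes, threshold of 0.05, and counts also with the study's added threshold of a log2 fold change of 1). Of the light, BFO, line, tissue and interaction comparisons, only the members and the lists of related genes are reported. Genes described with their libraries were the member of each class with the highest mean level in shoots (LHCA4, LHCB1.3, LHCB5, PSAF and PSBO1), those with the largest passing rise or fall per kind of comparison in shoots or roots (LHCB1.1, LHCB2.3, LHCB4.3 and LHCB7) and the atypical antenna genes (LHCA5, LHCA6, LHCB4.3 and LHCB7). Other members were named by their changes after these were seen. The members, the lists and the rule were chosen with earlier results of these data known. The counts were refitted with DESeq2 1.42.0 and with the voom method of limma 3.58.1, under other scalings and filters, with separate fits by tissue, with a replicate block, without each of the 48 libraries and, chosen after seeing the data, with separate fits by line. Promoters and exon lengths came from RefSeq on TAIR10.1 and matched all 41 loci. Scripts were tested on simulated data.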

Additional observations from a re-analysis of the deposited data

Results flagged for a closer look

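Differences between lines or between BFO states in the same contrast passed edgeR's quasi-likelihood test of the difference in 7 settings. In each sentence the values are differences of log2 fold changes, with the number of members that passed.

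The light response in shoots differed between the lines for 19 of 41 members, all lower in myc2-3, where 21.2% of all genes were lower and 24.4% higher. Among those described with all libraries, myc2-3 minus MYC2-FLAG was -0.93 for LHCA5, -1.76 for LHCA6, -2.28 for LHCB2.3, -1.10 for LHCB4.3 and -1.56 for LHCB7. The BFO response in shoots differed for 4 members, by -0.76 for LHCA6, -0.81 for LHCB2.3 and -0.90 for LHCB7, where 14% of all genes were lower and 15.4% higher. The BFO response in roots differed for 10 members, by 3.64 for LHCB1.1, 2.78 for LHCB4.3 and -1.88 for LHCB7, a smaller share than the 28% higher and 30.6% lower of all genes. The lines also differ in sequencing project, which cannot be told apart from the genotype.

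Within a line the light response differed between the BFO states. In myc2-3 shoots 3 members passed, with +BFO minus -BFO at -0.71 for LHCA6, -2.19 for LHCB4.3 and 1.31 for LHCB7, where 6.14% of all genes were higher and 8.35% lower. In MYC2-FLAG shoots 8 members passed, among them LHCA5 at 0.97, LHCA6 at 1.21, LHCB1.3 at -1.32, LHCB4.3 at 2.63 and LHCB7 at 1.85, a smaller share than the 19% higher and 15.1% lower of all genes. In myc2-3 roots 1 member passed, where 11.5% of all genes were higher and 12.8% lower. In MYC2-FLAG roots 21 members passed, among them LHCB1.3 at -2.27, LHCB2.3 at -3.93, LHCB5 at -1.53, PSAF at -1.86 and PSBO1 at -1.22, all 21 lower, where 7.47% of all genes were lower and 6.74% higher. LHCB4.3 and LHCB7 were higher in the LP response with BFO in MYC2-FLAG shoots, and only LHCB7 was in myc2-3 shoots.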

How the results depend on the processing

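The counts of members that passed (adjusted p) were recomputed under each alternative. Of 412 single changes that passed, 378 did so in limma-voom, 397 in DESeq2, 411 with DESeq2 size factors, 405 with scaling factors computed without the members, 409 without a filter on low counts, 412 with filterByExpr and 395 with a replicate block. The 412 include the large shoot-against-root changes of all 41 members in both lines, which also passed whichever library was left out and raise these shares. The separate fits kept 273 of 329 by tissue and 264 of 276 by line, and leaving out 1 library kept 4215 of 4740. No change that had passed turned its sign under any of these. Replicate numbers did not pair the samples (7 of 84 same-numbered pairs in shoots and 5 of 84 in roots correlated above 0.1), and the replicate block moved no count by over 1.5 times. The members of low level in roots (LHCA6, LHCB2.3 and LHCB4.3) are limited by their counts. Where a count moved, the cause was not tested.

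Limma-voom gave 8 members for light in myc2-3 shoots -BFO, 20 in MYC2-FLAG shoots +BFO, 6 in myc2-3 roots -BFO and 0 in myc2-3 roots +BFO. For BFO it gave 6 in myc2-3 NC shoots, 19 in LP shoots and 2 in NC roots, between the lines 18 in NC -BFO and 30 in LP +BFO shoots, and for the differences between lines in shoots 29 (light) and 12 (BFO). Scaling without the members gave 2 for light in myc2-3 shoots -BFO. DESeq2 gave 1 for the line difference in light response in roots and 5 for the light by BFO interaction in myc2-3 roots.

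The separate fit per tissue gave, for light in shoots, 9 (myc2-3 -BFO), 23 (myc2-3 +BFO), 19 (MYC2-FLAG -BFO) and 25 (MYC2-FLAG +BFO), and 8 in myc2-3 roots -BFO. For BFO it gave 8 and 29 in myc2-3 NC and LP shoots, 10 and 10 in MYC2-FLAG NC and LP shoots, and 3 and 4 in myc2-3 NC and LP roots. Between the lines in shoots it gave 21 (NC -BFO), 13 (NC +BFO), 1 (LP -BFO) and 35 (LP +BFO), for the line differences in light and BFO response 35 and 18, and for light by BFO 13 in shoots of each line and 11 in MYC2-FLAG roots. The separate fit per line gave 20 for light in MYC2-FLAG shoots +BFO, 5 and 8 for BFO in NC shoots of myc2-3 and MYC2-FLAG, and 15 in MYC2-FLAG NC roots.

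Leaving out 1 library at a time gave, for light, 1 to 3 members in myc2-3 shoots -BFO, 8 to 16 in MYC2-FLAG shoots +BFO, 2 to 25 in myc2-3 roots -BFO and 0 to 15 in myc2-3 roots +BFO. For BFO it gave 4 to 13 in myc2-3 LP shoots, 3 to 5 and 2 to 5 in MYC2-FLAG NC and LP shoots, and 3 to 6 and 1 to 11 in myc2-3 NC and LP roots. Between the lines it gave 5 to 8 in NC +BFO and 12 to 29 in LP +BFO shoots, and 12 to 24 in NC +BFO and 13 to 33 in LP -BFO roots. For light by BFO it gave 1 to 3 and 1 to 4 in myc2-3 shoots and roots and 10 to 25 in MYC2-FLAG roots.

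The mean log2 CPM of the 19 antenna genes minus that of the subunits moved in roots with a prior count of 0.5, to 0.21 in myc2-3 LP -BFO, 0.17 in MYC2-FLAG LP -BFO, 0.0025 in MYC2-FLAG LP +BFO and 0.31 in MYC2-FLAG NC -BFO, and turned to -0.10 in MYC2-FLAG NC +BFO, against 0.06 with a prior count of 2. Without organellar genes the members' share was 19.7% in myc2-3 LP -BFO shoots.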

Other observations

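Early light-induced proteins, relatives of the antenna proteins that appear under light stress, changed with light in shoots. ELIP1 was higher in LP than in NC in MYC2-FLAG +BFO shoots (log2 fold change of 7.39) and lower in myc2-3 +BFO (-6.81), myc2-3 -BFO (-3.11) and MYC2-FLAG -BFO shoots (-2.77). ELIP2 rose by 5.90 in MYC2-FLAG +BFO shoots and fell by 3.33 in myc2-3 -BFO shoots. Of the 6 LHC-like photoprotection genes, 5 rose and 0 fell in MYC2-FLAG +BFO shoots, against 0 and 4 in myc2-3 +BFO shoots, where 22.6% of all genes were higher and 23.2% lower in MYC2-FLAG +BFO, and 14.1% and 15.6% in myc2-3 +BFO. OHP1, a one-helix relative, rose by 1.22 in MYC2-FLAG +BFO shoots and by 0.40 in MYC2-FLAG -BFO shoots, and fell by 0.36 in myc2-3 +BFO shoots and by 0.59 in myc2-3 -BFO shoots. The state-transition kinase STN7 rose by 1.21 in LP in MYC2-FLAG +BFO shoots and fell by 1.19 in myc2-3 +BFO shoots. Of 10 electron carrier and ATP synthase genes, 6 rose in LP in MYC2-FLAG +BFO shoots, with FD1 at 1.49 and ATPD at 0.98, and 8 fell in myc2-3 +BFO shoots, with ATPD at -1.22 and ATPC1 at -0.95.

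In MYC2-FLAG LP roots, genes for the import of antenna proteins into the thylakoid changed with BFO in both directions. ALB3 (1.00), LTD (1.11), CPSRP43 (0.92) and CPSRP54 (0.74) rose, and CPFTSY fell by 1.06, while 26 of the 41 members fell. These 4 rises and 1 fall covered all 5 genes of the list, where 21.4% of all genes were higher and 22.5% lower. All genes here were tested with edgeR and chosen after their values were seen.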
